A study of Mus musculus with 8 samples.

Results

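Imprinted genes are read mainly from the allele inherited from 1 parent, and most of them lie in clusters in which a methylated control region sets which parental copy is active. Paternally expressed members such as Igf2, Dlk1, Peg3 and Mest are known as promoters of growth, and maternally expressed members such as Cdkn1c, Phlda2, Grb10 and Igf2r as restraints on it. Several members are imprinted only in placenta or brain. The CJ9 line is of 1 inbred strain, so its parental copies were not resolved, and the allele named beside each gene is textbook background from mouse.

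All 38 imprinted genes on the list were found by symbol in the deposited expression table, out of 38610 symbols. By position they formed 18 clusters or single genes on 11 chromosomes. Of the 38 genes, 20 are paternally and 16 maternally expressed. Gnas depends on the transcript, and the row AK145379, which lies at the H19 position, has no annotated allele.

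The RNA came from CJ9, a mouse embryonic stem cell line of strain 129S4/SvJae, taken through differentiation by withdrawal of leukemia inhibitory factor (LIF), the cytokine that holds these cells undifferentiated. There were 3 libraries of Evx1as knockout (KO) cells, 3 of EVX1 KO cells and 2 of wild-type (WT) cells, and the series title gives the knockouts as made by CRISPR. Evx1as is a long non-coding RNA next to Evx1, which encodes a homeobox factor of the primitive streak. Titles and time tags put all 8 libraries at day 4, but the growth and harvest text of EVX1 KO replicates 2 and 3 gives day 6. Most counts and calls that rest on EVX1 KO are therefore given also without that pair. That fit gives the 1 remaining EVX1 KO library the spread of the Evx1as KO and WT libraries. The labels name no clone for any knockout and do not say whether replicates were separate cultures, so p-values measure only the spread between these libraries, which may be technical.

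Values were FPKM, fragments scaled to transcript length and library size. They summed to between 531523 and 587798 per library, and between 12244 and 12442 genes reached 1 FPKM. Depth relative to WT replicate 1, read from the steps between low values, was 0.859 to 0.979 in Evx1as KO, 0.986 to 1.05 in EVX1 KO and 1.19 in WT replicate 2. The Evx1as row, 5730457N03Rik, stood at 0.0549, 0.104 and 0.0485 FPKM in Evx1as KO and at 5.01, 8.81 and 7.39 FPKM in EVX1 KO, against 5.36 and 6.75 FPKM in WT. Evx1 stood at 2.45, 3.84 and 0.541 FPKM in Evx1as KO and at 26.3, 20.8 and 31.7 FPKM in EVX1 KO, against 22 and 31.2 FPKM in WT. An edit that stops the protein need not lower its mRNA, so the EVX1 KO label is not checked by this level. Median levels of the chromosomes that hold members, other than chromosome 1, lay within -0.04 to 0.04 (log2) of each gene's mean over the 8 libraries. Chromosome 1, which holds the member Zdbf2, ranged from -0.10 to 0.14, and chromosomes 8 and 14, where libraries stood apart by more, hold no member.

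Differences were tested on log2(FPKM + 1) over the 13188 genes that reached 1 FPKM in 2 or more libraries. The test was limma with Benjamini-Hochberg adjustment over all of them, and an adjusted p under 0.05 was called a change. Of the 38 members, 32 passed that filter. The other 6 were H19, Airn, Usp29, Kcnq1ot1, Slc22a18 and Rasgrf1. AK145379 and Asb4 passed it through 1 group or nearly so. AK145379 reached 1 FPKM in both WT libraries and in Evx1as KO replicate 3. Asb4 did so only in the 3 EVX1 KO libraries, and Dlk1 in every library but those of Evx1as KO. By deposited position 20 members overlap another row, 13 of them a row that passed the filter, so reads may be shared. The pseudocount of 1 understates the fold change of low genes.

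In Evx1as KO against WT, 9 members fell and 5 rose. The members that fell were Igf2, Dlk1, Peg3, Peg10, Ndn, Impact, Cdkn1c, Phlda2 and AK145379, and those that rose were Meg3, Ppp1r9a, Trappc9, Magel2 and Grb10. AK145379 was tested because it stood high in WT, so the filter favoured its fall. Dlk1 passed the filter only through EVX1 KO and WT, so its fall was favoured too. Over all genes tested, 24.5% changed and 11.4% fell (1509 fell and 1721 rose), beside 43.8% and 28.1% of the 32 members. The members' median log2 fold change was -0.20, beside 0.02 over all genes. Of 16 paternally expressed members tested, 6 fell and 1 rose, with a median of -0.40. Of 14 maternally expressed members, 2 fell and 4 rose, with a median of -0.05. The difference between the alleles was not tested. Leaving out WT replicate 1 gave 4 lower and 3 higher members, and leaving out WT replicate 2 gave 3 lower and 3 higher, so the counts rest on both WT libraries. With no filter on low values, which raises the number of genes tested to 23869, Igf2, Dlk1, Ndn, Impact, Phlda2, Meg3 and Trappc9 lost their calls, leaving 4 that fell and 3 that rose.

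**Figure D1:**
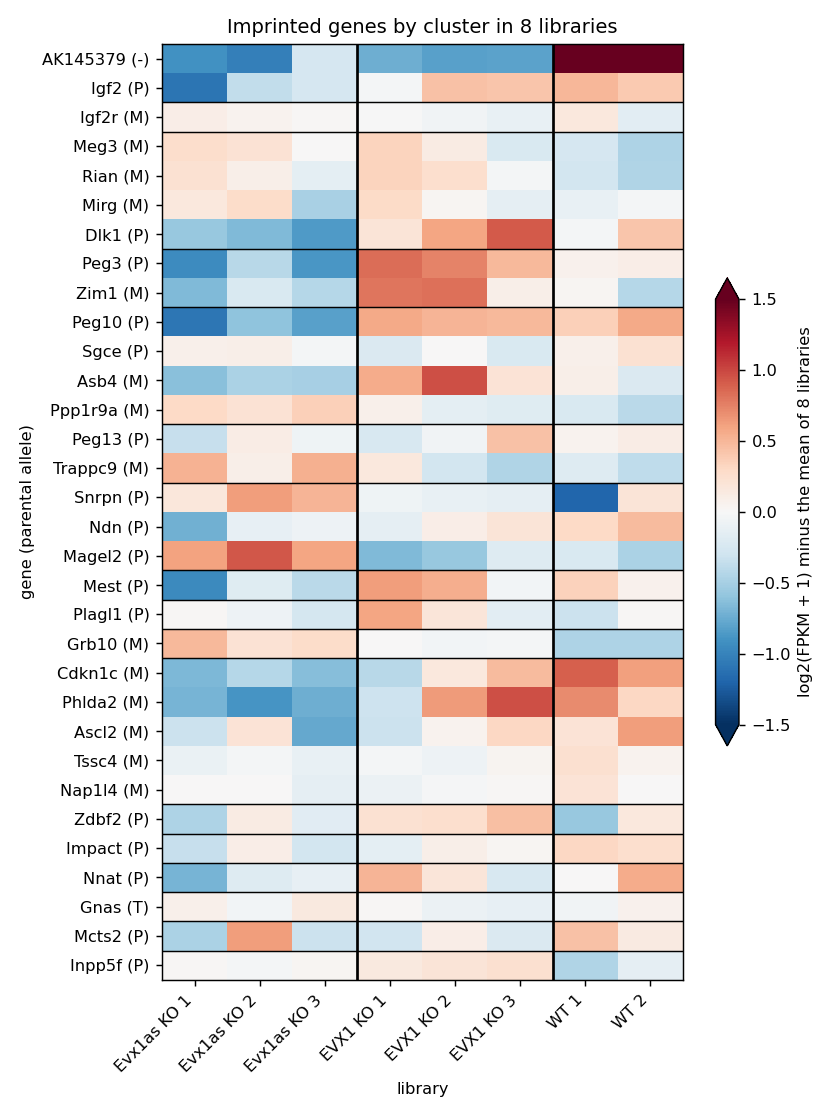
Level of the 32 tested imprinted genes in each library, as log2(FPKM + 1) minus the gene's mean over 8 libraries, with red high and blue low. Black lines divide clusters and groups, and letters give the expressed allele (P paternal, M maternal, T by transcript, - not annotated); colours stop at -1.5 and 1.5, which the WT values of AK145379 pass. Igf2, Dlk1, Peg3 and Peg10 are low in all 3 Evx1as KO libraries, while Magel2 is high there.

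In EVX1 KO against WT, AK145379 was the 1 member that fell and 0 rose. This row was tested because it stood high in WT, so the filter favoured a fall. Over all genes tested, 1.24% changed and 0.554% fell in that comparison (73 fell and 91 rose). By limma without adjustment, 11 of the 32 members had p under 0.05, beside 2800 of all 13188 genes. These counts moved with single libraries: leaving out 1 library gave 4 to 643 genes called, with 0 to 4 members higher and 0 to 2 lower. The 4 members higher were Meg3, Rian, Peg3 and Zim1, in the fit without EVX1 KO replicate 3. With array weights, which let each library count by its own spread, 1148 genes were called and 7 members were higher. Without both day-6 libraries 1.68% of 12981 genes changed, and the only member called was Cdkn1c, which fell. The members' median was 0.02, equal to that of all genes. The comparisons share the WT libraries, so their values are set side by side below and not counted as separate evidence.

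The knockouts were also compared with each other. In EVX1 KO against Evx1as KO, 9 members were higher (Igf2, Dlk1, Peg3, Zim1, Peg10, Asb4, Mest, Cdkn1c and Phlda2) and 2 lower (Magel2 and Grb10). Over all genes, 22.0% differed and 11.3% were lower (1412 higher and 1491 lower), beside 34.4% and 6.25% of the members. Asb4 passed the filter only through EVX1 KO, so it had to stand high there and its place among the 9 supports nothing. Dlk1 passed it only through EVX1 KO and WT, so the filter favoured its place among the 9 as well. The counts without both day-6 libraries were 4 higher (Peg3, Zim1, Peg10 and Mest) and 1 lower (Magel2) of 31 tested, with 8.49% of all genes called. The members' median was 0.16, beside 0.00 over all genes. With no filter on low values Igf2, Zim1, Mest, Cdkn1c and Phlda2 lost their calls and Usp29 gained one. Paternally expressed members counted 5 higher and 1 lower of 16, and maternally expressed members 4 higher and 1 lower of 14. This split rests on all 3 EVX1 KO libraries, with Dlk1 among the paternal 5 and Asb4 among the maternal 4. The difference between the alleles was not tested here either.

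Markers of cell state moved with these results. In bulk samples fewer cells of a type and less RNA per cell cannot be told apart. Over all genes tested, 24.5% were called in Evx1as KO against WT, 1.24% in EVX1 KO against WT and 22.0% between the knockouts. Of 10 primitive streak and mesoderm markers, all tested, 8 fell in Evx1as KO, 1 fell in EVX1 KO against WT, and 9 were higher in EVX1 KO than in Evx1as KO. With the day-6 pair left out 9 were tested, of which 1 fell in EVX1 KO against WT and 6 were higher than in Evx1as KO. Their summed level was 43.8 to 138 FPKM in Evx1as KO and 339 to 363 FPKM in EVX1 KO, against 360 to 382 FPKM in WT. Of these markers Kdr, Mesp1, Msgn1, Pdgfra and Foxf1 stayed below 1 FPKM in every Evx1as KO library. They passed the filter through the other groups, so it favoured calls that place them low in Evx1as KO. Of 8 pluripotent or epiblast markers, Dnmt3b among them, 6 rose in Evx1as KO and 2 in EVX1 KO, also 2 without both day-6 libraries, and all 8 reached 1 FPKM in at least 2 libraries. Their summed levels were 829 to 900 FPKM in Evx1as KO and 609 to 630 FPKM in EVX1 KO, against 438 to 494 FPKM in WT. The part of these shifts in the changes of imprinted genes was not tested.

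**Figure D2:**
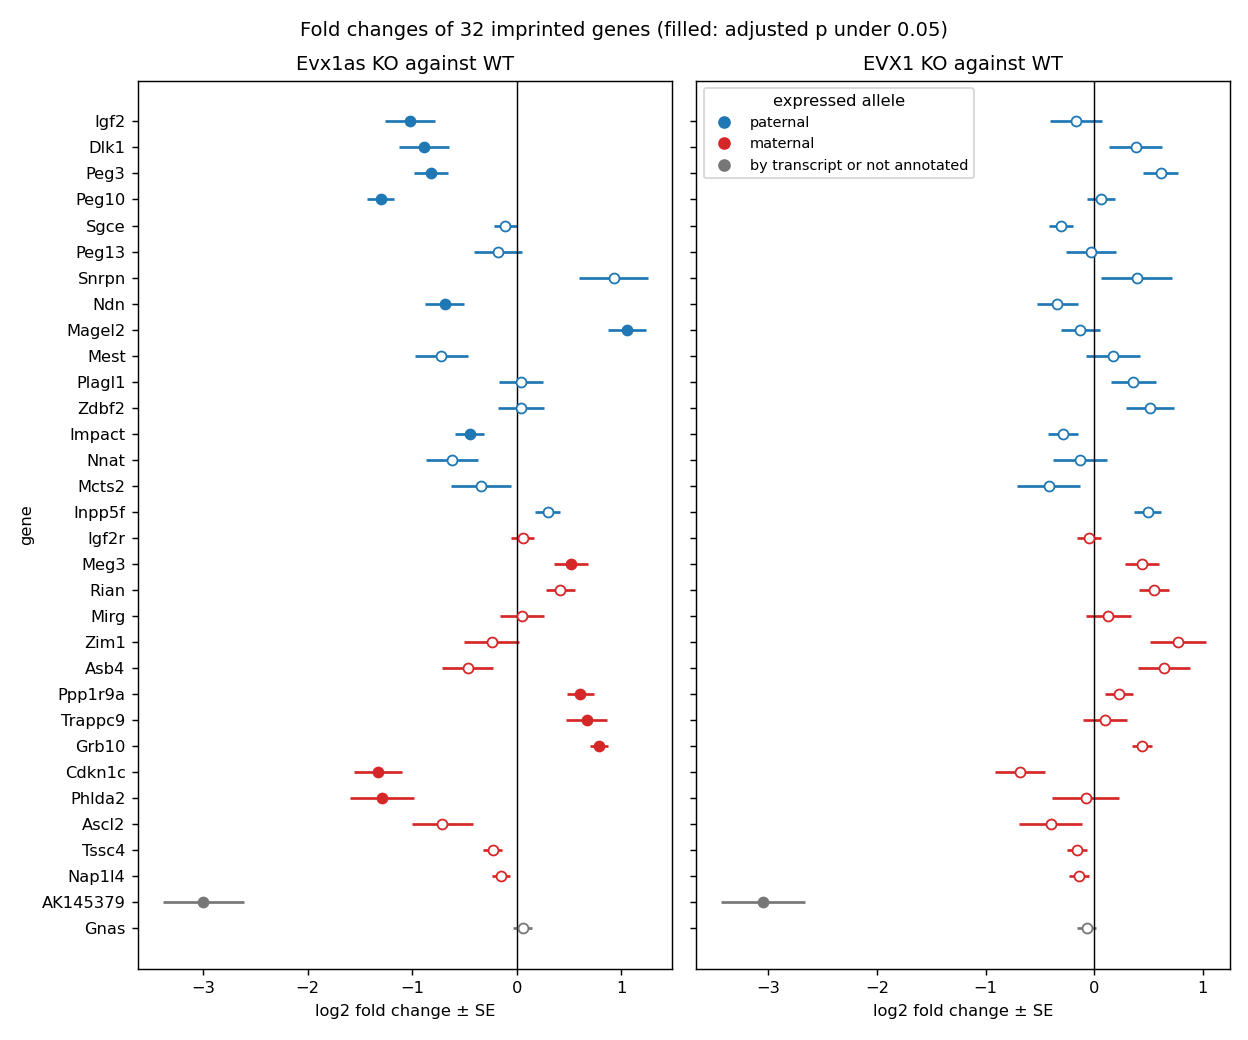
Log2 fold change with its standard error for each of the 32 tested imprinted genes, in Evx1as KO against WT and in EVX1 KO against WT, with filled points for adjusted p under 0.05. Filled points number 14 for Evx1as KO and 1, AK145379, for EVX1 KO.

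Start regions are shown for Peg3, whose RefSeq start faces that of Usp29 with part of the window shared, and for Ndn and Magel2, neighbours that moved in opposite directions in Evx1as KO. Each is the 250 bases before the RefSeq start on GRCm38.p6, 5′ to 3′ on the gene's strand, with CG pairs, the bases that carry imprint methylation, in capitals. The Peg3 window is chr7:6730420-6730669 on the minus strand, Ndn chr7:62348027-62348276 on the plus strand, and Magel2 chr7:62376729-62376978 on the plus strand.
Peg3: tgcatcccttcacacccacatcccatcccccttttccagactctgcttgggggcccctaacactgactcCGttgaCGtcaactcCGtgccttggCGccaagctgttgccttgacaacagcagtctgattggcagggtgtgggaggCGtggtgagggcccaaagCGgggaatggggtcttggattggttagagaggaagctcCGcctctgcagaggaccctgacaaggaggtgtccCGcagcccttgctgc
Ndn: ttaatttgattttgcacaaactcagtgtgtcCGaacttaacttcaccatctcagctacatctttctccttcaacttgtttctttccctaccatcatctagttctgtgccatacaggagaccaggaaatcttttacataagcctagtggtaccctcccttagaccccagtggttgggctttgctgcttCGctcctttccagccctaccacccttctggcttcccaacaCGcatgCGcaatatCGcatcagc
Magel2: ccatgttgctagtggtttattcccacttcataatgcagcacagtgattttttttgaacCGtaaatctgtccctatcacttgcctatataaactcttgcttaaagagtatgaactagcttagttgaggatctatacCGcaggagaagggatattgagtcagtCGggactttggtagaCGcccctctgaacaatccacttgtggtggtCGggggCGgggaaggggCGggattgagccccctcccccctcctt

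These windows hold 8 CG pairs for Peg3, 5 for Ndn and 7 for Magel2. The Usp29 window shares 163 bases with that of Peg3 and holds 14. RefSeq windows were at hand for 29 of the 38 members, 45 windows in all, with a median of 10 CG pairs, beside 6 over all 32851 windows. They were not found for H19, AK145379, Peg10, Sgce, Peg13, Trappc9, Cdkn1c, Nap1l4 and Impact. The letters TGCCGC, the core of the motif bound by the imprint-keeping protein Zfp57, were searched on both strands as TGCCGC and GCGGCA. They occurred in 7 of the 45 member windows (15.6%), at Mcts2, Meg3, Mest, Plagl1, Zdbf2 and Zim1, and in 8.68% of all windows of this length. A match describes letters only, and none of the printed windows held one.

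The Igf2-H19 cluster, on chromosome 7, gave the largest fold change of any member, on a row tested because it stood high in WT. Igf2 encodes a secreted growth factor read from the paternal copy, and H19 a non-coding RNA read from the maternal copy. In the deposited table H19 (chromosome 7, 149761436 to 149764051) and AK145379 (149761435 to 149764019) overlap over 2584 bases, and the reads of the position stood on the AK145379 row. AK145379 had 0.651, 0.52 and 1.61 FPKM in Evx1as KO and 0.864, 0.758 and 0.778 FPKM in EVX1 KO, against 7.88 and 24.2 FPKM in WT. The H19 row did not exceed 0.314 FPKM in any library. Every knockout library thus lay below both WT libraries on the AK145379 row and the WT libraries also stood well apart from each other.

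The log2 fold change of AK145379 was -3.00 ± 0.39 (SE, adjusted p = 0.00191, limma) in Evx1as KO and -3.05 ± 0.39 (adjusted p = 0.0205) in EVX1 KO. It moved to -3.75 without WT replicate 1 and to -2.25 without WT replicate 2 for Evx1as KO, with adjusted p of 0.00502 and 0.0101. For EVX1 KO the same omissions gave -3.81 and -2.30, with adjusted p of 0.00986 and 0.0483. The EVX1 KO call was lost without EVX1 KO replicate 2 (adjusted p = 0.0916) and without both libraries of day 6 in the protocol text (-3.00, adjusted p = 0.0541). With the H19 and AK145379 rows summed, an alternative added after the data were seen, the values were -2.88 for Evx1as KO (adjusted p = 0.00225) and -3.07 for EVX1 KO (adjusted p = 0.0198). With no filter on low values, the call of AK145379 was kept in Evx1as KO (adjusted p = 0.0116, limma) and lost in EVX1 KO (0.0586).

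Igf2, 72.6 kilobases away, had 48.5, 81.1 and 88 FPKM in Evx1as KO and 103, 143 and 140 FPKM in EVX1 KO, against 148 and 138 FPKM in WT. All Evx1as KO libraries lay below the others, and EVX1 KO overlapped WT. Igf2 fell in Evx1as KO by 1.02 on the log2 scale (SE 0.24, adjusted p = 0.0162, limma). In EVX1 KO its log2 fold change was -0.17 ± 0.24 (adjusted p = 0.724). EVX1 KO exceeded Evx1as KO by 0.85 ± 0.21 (adjusted p = 0.023). The fall against WT was lost without WT replicate 1 or 2 (adjusted p = 0.093 and 0.073). The difference between knockouts was lost without EVX1 KO replicate 2 or 3 (0.0841 and 0.0572) and without both (0.55, adjusted p = 0.296).

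The antisense row Igf2as overlaps Igf2 over 1344 bases and, chosen after its values were seen, fell in Evx1as KO by 0.90 (SE 0.18, adjusted p = 0.00787, limma), a call lost without WT replicate 1 (0.0615). No source used here gives the strand setting of the counting, so reads of Igf2 and Igf2as cannot be told apart.

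At the Igf2r-Airn cluster, Igf2r encodes the receptor that takes up and degrades Igf2, and Airn is a paternal non-coding RNA antisense to it. Igf2r ranged from 28.1 to 30 FPKM in Evx1as KO and from 25.6 to 27.8 FPKM in EVX1 KO, against 24.8 to 31.1 FPKM in WT. Its log2 fold changes were 0.06 ± 0.11 and -0.05 ± 0.11 in the knockouts against WT, and neither passed the test. Airn reached at most 0.264 FPKM in any library.

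The Dlk1-Meg3 cluster lies on chromosome 12. Dlk1, a paternally expressed transmembrane protein of the Notch ligand family, had 0.722, 0.614 and 0.415 FPKM in Evx1as KO and 1.92, 2.87 and 3.85 FPKM in EVX1 KO, against 1.5 and 2.4 FPKM in WT. Meg3, a maternally expressed non-coding RNA, had 145, 140 and 121 FPKM in Evx1as KO and 152, 132 and 103 FPKM in EVX1 KO, against 101 and 87.5 FPKM in WT. Dlk1 was thus lowest in Evx1as KO, and Meg3 was above WT in all 6 knockout libraries.

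Dlk1 fell in Evx1as KO by 0.89 on the log2 scale (SE 0.24, adjusted p = 0.0262, limma), and its log2 fold change in EVX1 KO was 0.38 ± 0.24 (adjusted p = 0.386). Between the knockouts, EVX1 KO was higher than Evx1as KO by 1.27 ± 0.21 (adjusted p = 0.00456), a call kept in each of 8 fits that left out 1 library and lost without both day-6 libraries (0.89, adjusted p = 0.0867). With a filter at 5 FPKM Dlk1 was not tested. Dlk1 lost its call against WT when Evx1as KO replicate 3 (adjusted p = 0.0799), WT replicate 1 (0.051) or WT replicate 2 (0.177) was left out, and with a pseudocount of 5 (-0.31, 0.0535). All of its levels were below 4 FPKM and rest on few reads. Dlk1 reached 1 FPKM only in EVX1 KO and WT, so the filter favoured its low place in Evx1as KO in both comparisons.

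Meg3 rose in Evx1as KO by 0.52 ± 0.16 (adjusted p = 0.0426, limma) and had a log2 fold change of 0.44 ± 0.16 in EVX1 KO (adjusted p = 0.166). Without any 1 of the Evx1as KO replicates 1, 2 and 3, EVX1 KO replicate 2, or WT replicates 1 and 2, the rise was lost, with adjusted p of 0.11, 0.0869, 0.056, 0.0643, 0.0903 and 0.219. In EVX1 KO the value was called without replicate 3 (0.59, adjusted p = 0.0392).

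Rian and Mirg are maternally expressed non-coding RNAs downstream of Meg3 that host small RNAs. Rian had 55.5, 50.4 and 42.4 FPKM in Evx1as KO and 59.9, 56.2 and 46.2 FPKM in EVX1 KO, against 38.9 and 34.3 FPKM in WT. As with Meg3, all knockout libraries exceeded WT, but neither Rian comparison was called (adjusted p = 0.0618 and 0.0896, limma). Rian was called in Evx1as KO without EVX1 KO replicate 3 (0.42, adjusted p = 0.0392) or Evx1as KO replicate 3 (0.52, 0.046), and in EVX1 KO without its replicate 3 (0.65, 0.038). Mirg ranged from 13.2 to 23.2 FPKM over all libraries, with log2 fold changes of 0.05 ± 0.21 and 0.13 ± 0.21.

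The difference Dlk1 minus Meg3, in log2(FPKM + 1), was -6.43 ± 0.02 in Evx1as KO (SD, n = 3) and -5.08 ± 0.64 in EVX1 KO (n = 3), against -5.03 ± 0.46 in WT (n = 2). The paternal to maternal balance of this cluster was lower in Evx1as KO than in every other library, and no test was made of it. It shifted by -1.40 in Evx1as KO against WT with a pseudocount of 1, by -2.10 with 0.1 and by -0.81 with 5. Dlk1 was below 1 FPKM in every Evx1as KO library, so the added 1 narrows the SD of 0.02 there.

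**Figure D3:**
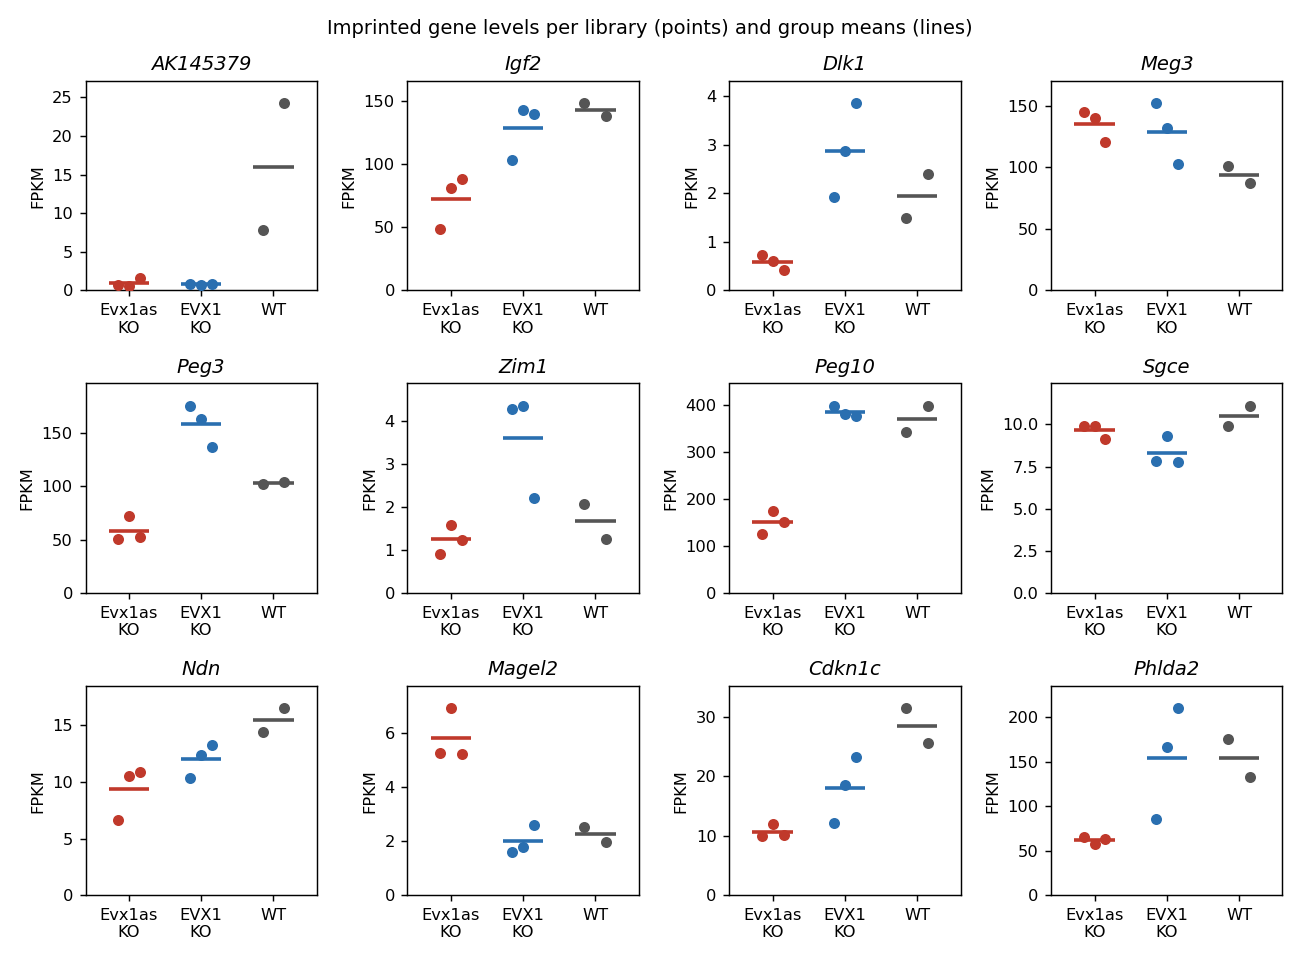
FPKM of 12 imprinted genes in each library (points) with group means (lines), each axis starting at 0. AK145379 is below 2 FPKM in all 6 knockout libraries, and Igf2, Dlk1, Peg3, Peg10, Cdkn1c and Phlda2 are lowest in the 3 Evx1as KO libraries, while Sgce, the neighbour of Peg10, overlaps between Evx1as KO and WT.

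The Peg3 cluster, on chromosome 7, differed between the knockouts. Peg3 is a paternally expressed zinc finger protein. It had 50.2, 72.3 and 52.4 FPKM in Evx1as KO and 175, 163 and 137 FPKM in EVX1 KO, against 102 and 104 FPKM in WT. No group overlapped another, with Evx1as KO lowest and EVX1 KO highest.

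Peg3 fell in Evx1as KO by 0.82 on the log2 scale (SE 0.16, adjusted p = 0.00786, limma). In EVX1 KO its log2 fold change was 0.61 ± 0.16, which did not pass the test (adjusted p = 0.0889), although it did without EVX1 KO replicate 3 (0.71, adjusted p = 0.0472). The level in EVX1 KO was above that in Evx1as KO by 1.44 ± 0.14 (adjusted p = 0.000504), and this call was kept in each of 8 fits that left out 1 library. It was 1.59 without both day-6 libraries (adjusted p = 0.0107), and the value against WT was then 0.77 (0.0946). Of the fits that left out 1 library, the fall against WT was lost without WT replicate 2 (adjusted p = 0.0517). The row Peg3as overlaps Peg3 over 866 bases and, chosen after its values were seen, had 23.5, 31.3 and 25.7 FPKM in Evx1as KO and 84, 84.7 and 63.1 FPKM in EVX1 KO, against 40.4 and 56.6 FPKM in WT. It gave the same order and fell in Evx1as KO by 0.82 (SE 0.18, adjusted p = 0.0138), a call lost without WT replicate 2 (0.11). Without a known strand setting its reads cannot be told apart from those of Peg3.

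Usp29, a ubiquitin protease whose row starts 320 bases from that of Peg3, stayed below the filter. It had 0.126, 0.119 and 0.111 FPKM in Evx1as KO and 0.448, 0.33 and 0.365 FPKM in EVX1 KO, against 0.127 and 0.199 FPKM in WT. The EVX1 KO libraries were highest here too, at levels that rest on few reads.

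Zim1, a maternally expressed zinc finger gene on the other side of Peg3, had 0.904, 1.58 and 1.24 FPKM in Evx1as KO and 4.28, 4.34 and 2.2 FPKM in EVX1 KO, against 2.07 and 1.25 FPKM in WT. EVX1 KO was above both other groups. Its log2 fold change was -0.24 ± 0.26 in Evx1as KO (adjusted p = 0.529, limma) and 0.77 ± 0.26 in EVX1 KO (adjusted p = 0.145). EVX1 KO exceeded Evx1as KO by 1.01 ± 0.23 (adjusted p = 0.016), which did not hold when EVX1 KO replicate 2 (0.0665) or Evx1as KO replicate 1 (0.055) or 3 (0.0529) was left out. Without EVX1 KO replicate 3, Zim1 was called against WT (1.01, adjusted p = 0.0387). It was not without both day-6 libraries (1.01, 0.101), while the difference from Evx1as KO was called (1.25, 0.0349). Peg3 and its maternal neighbour were thus both higher in EVX1 KO than in Evx1as KO, and Peg3 minus Zim1 was 4.72 ± 0.13 in Evx1as KO and 5.14 ± 0.26 in EVX1 KO (SD, n = 3 each), against 5.30 ± 0.34 in WT (n = 2). The shift of EVX1 KO against WT in this balance was -0.16 with a pseudocount of 1 and 0.23 with 5.

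The Peg10-Sgce cluster, on chromosome 6, held 1 member that fell in Evx1as KO and a neighbour that was not called. Peg10 is a protein of retrotransposon origin needed in the placenta, and Sgce encodes epsilon-sarcoglycan. Both are paternally expressed and their rows lie 100 bases apart. Peg10 had 126, 175 and 151 FPKM in Evx1as KO and 398, 381 and 376 FPKM in EVX1 KO, against 343 and 397 FPKM in WT. Sgce had 9.91, 9.92 and 9.12 FPKM in Evx1as KO and 7.85, 9.34 and 7.78 FPKM in EVX1 KO, against 9.91 and 11.1 FPKM in WT. Peg10 in all 3 Evx1as KO libraries was far below every other library, whereas Sgce overlapped between Evx1as KO and WT.

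Peg10 fell in Evx1as KO by 1.30 on the log2 scale (SE 0.13, adjusted p = 0.000932, limma) and differed by 0.06 ± 0.13 in EVX1 KO (adjusted p = 0.816). Between the knockouts, EVX1 KO was higher than Evx1as KO by 1.36 ± 0.12 (adjusted p = 0.000324). Both calls were kept in each of 8 fits that left out 1 library. The difference between the knockouts was 1.41 without both day-6 libraries (adjusted p = 0.0107). Sgce had log2 fold changes of -0.11 ± 0.11 in Evx1as KO and -0.31 ± 0.11 in EVX1 KO, neither called (adjusted p = 0.499 and 0.174).

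Asb4, a maternally expressed member of this cluster, is an ankyrin repeat protein of ubiquitin ligases. It had 0.145, 0.274 and 0.256 FPKM in Evx1as KO and 1.61, 2.45 and 1.04 FPKM in EVX1 KO, against 0.877 and 0.528 FPKM in WT. No group overlapped another. Asb4 entered the test only because all 3 EVX1 KO libraries reached 1 FPKM, and without both day-6 libraries it was not tested, so its difference between the knockouts, 1.11 ± 0.21 on the log2 scale, is given as a description. Against WT neither knockout was called, with values of -0.47 ± 0.24 for Evx1as KO and 0.64 ± 0.24 for EVX1 KO. The difference Sgce minus Asb4 was 3.12 ± 0.12 in Evx1as KO and 1.82 ± 0.27 in EVX1 KO (SD, n = 3 each), against 2.77 ± 0.32 in WT (n = 2). The shift against WT depended on the pseudocount: it was 0.35 in Evx1as KO with 1, 1.17 with 0.1 and 0.04 with 5, and in EVX1 KO -0.95, -1.46 and -0.45.

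Ppp1r9a, also maternally expressed, encodes neurabin, an actin-binding partner of protein phosphatase. It had 4.9, 4.54 and 5.13 FPKM in Evx1as KO and 4.03, 3.33 and 3.22 FPKM in EVX1 KO, against 3.09 and 2.62 FPKM in WT. The groups did not overlap, with Evx1as KO highest. Ppp1r9a rose in Evx1as KO by 0.61 ± 0.13 (adjusted p = 0.0121, limma), a call lost without WT replicate 2 (adjusted p = 0.0814). EVX1 KO was lower than Evx1as KO by a log2 fold change of -0.38 ± 0.12, just outside the threshold (adjusted p = 0.0501) and inside it without EVX1 KO replicate 1 (0.0379).

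The Snrpn cluster, on chromosome 7, is the region whose human counterpart is lost in Prader-Willi syndrome, and its 3 members here are paternally expressed. Magel2 and Ndn, genes of the MAGE family that lie 27050 bases apart, moved in opposite directions in Evx1as KO. Magel2 had 5.26, 6.9 and 5.21 FPKM in Evx1as KO and 1.6, 1.78 and 2.6 FPKM in EVX1 KO, against 2.52 and 1.98 FPKM in WT. Ndn, which encodes necdin, had 6.64, 10.5 and 10.9 FPKM in Evx1as KO and 10.4, 12.4 and 13.3 FPKM in EVX1 KO, against 14.4 and 16.5 FPKM in WT. Magel2 was highest and Ndn below WT in every Evx1as KO library.

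Magel2 rose in Evx1as KO by 1.06 ± 0.18 (adjusted p = 0.0052, limma) and was lower in EVX1 KO than in Evx1as KO by a log2 fold change of -1.19 ± 0.16 (adjusted p = 0.002). Both calls were kept in each of 8 fits that left out 1 library, and without both day-6 libraries the difference between the knockouts was -1.38 (0.015). Ndn fell in Evx1as KO by 0.69 (SE 0.19, adjusted p = 0.0319), a call lost without EVX1 KO replicate 2 (0.0506), WT replicate 1 (0.0903) or WT replicate 2 (0.166). In EVX1 KO, Magel2 had a log2 fold change of -0.13 ± 0.18 and Ndn of -0.34 ± 0.19, neither called. The Magel2 levels are a few FPKM.

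Snrpn, which encodes the spliceosomal protein SmN, was spread over several rows. The row named Snrpn had 9.71, 13.7 and 12.6 FPKM in Evx1as KO and 8.13, 7.85 and 7.7 FPKM in EVX1 KO, against 3.19 and 9.94 FPKM in WT, and was not called (0.93 ± 0.33 in Evx1as KO, adjusted p = 0.0693, limma). That value was 0.24 without WT replicate 1 and 1.62 without WT replicate 2 (adjusted p = 0.418 and 0.00709). In EVX1 KO it was 0.39 ± 0.33, turning to -0.30 without WT replicate 1 and to 1.09 without WT replicate 2, none of them called. A further row that carries only the accession NM_013670, which RefSeq assigns to Snrpn, overlaps it over 22656 bases and held most of the signal. It was chosen after its values were seen.

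NM_013670 had 139, 136 and 136 FPKM in Evx1as KO and 78.3, 84.4 and 80.1 FPKM in EVX1 KO, against 64 and 62.4 FPKM in WT. The groups did not overlap and the libraries of each group lay close together. It rose in Evx1as KO by 1.10 ± 0.07 (adjusted p = 0.000239, limma), was 0.35 ± 0.07 above WT in EVX1 KO (adjusted p = 0.0597, not called), and was lower in EVX1 KO than in Evx1as KO by a log2 fold change of -0.75 ± 0.07 (adjusted p = 0.000324). Without both day-6 libraries EVX1 KO stood at 0.30 against WT (adjusted p = 0.144) and -0.80 against Evx1as KO (0.0105). Snurf, the upstream reading frame of the same transcript, stood at 8.5, 8.26 and 8.22 FPKM in Evx1as KO and at 4.76, 5.13 and 4.86 FPKM in EVX1 KO, against 3.94 and 3.86 FPKM in WT, and rose in Evx1as KO by 0.93 ± 0.10 (adjusted p = 0.00102). With the 3 rows summed, an alternative also added after the data were seen, the position rose in Evx1as KO by 1.08 (adjusted p = 0.000239), and EVX1 KO was lower than Evx1as KO (-0.74, adjusted p = 0.000382). These rows share reads, so how the signal divides among them is uncertain.

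**Figure D4:**
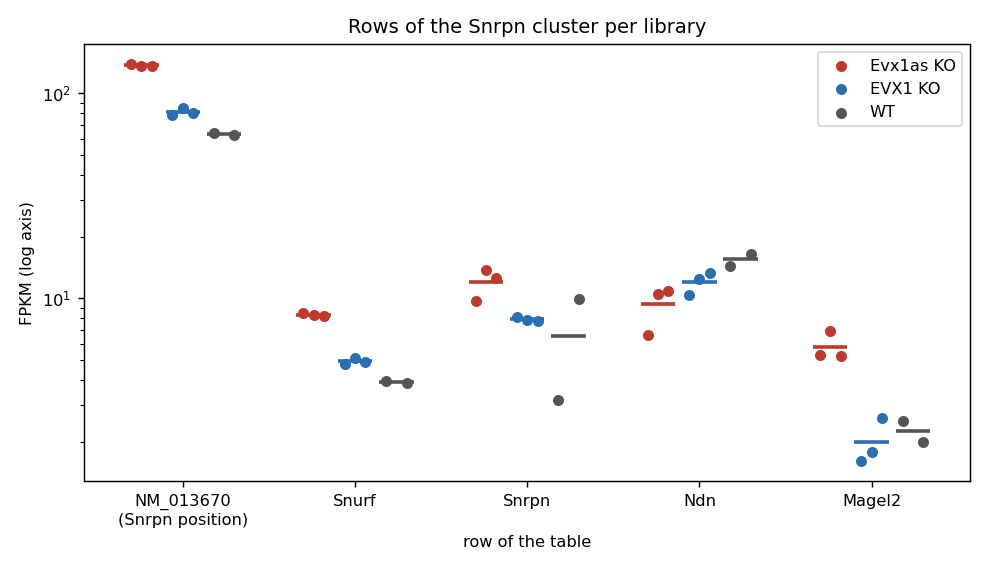
FPKM on a log axis of the rows of the Snrpn cluster in each library, with lines at group means and the groups in the order Evx1as KO, EVX1 KO, WT. NM_013670, Snurf and Magel2 are highest in Evx1as KO, the row named Snrpn differs between WT libraries (3.19 and 9.94 FPKM), and Ndn is highest in WT.

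The Kcnq1ot1 cluster lies beside Igf2-H19 on chromosome 7, and its protein-coding members are maternally expressed. Cdkn1c, the inhibitor p57 of cyclin-dependent kinases, had 9.95, 12 and 10.2 FPKM in Evx1as KO and 12.1, 18.5 and 23.3 FPKM in EVX1 KO, against 31.4 and 25.6 FPKM in WT. Phlda2, a pleckstrin homology protein that restrains placental growth in mouse, had 65.6, 57.3 and 63.7 FPKM in Evx1as KO and 85.7, 167 and 210 FPKM in EVX1 KO, against 176 and 133 FPKM in WT. Both were lowest in Evx1as KO, and in EVX1 KO both were lower in replicate 1 than in the pair with day 6 in the protocol text.

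Cdkn1c fell in Evx1as KO by 1.33 on the log2 scale (SE 0.23, adjusted p = 0.00475, limma), a call kept in each of 8 fits that left out 1 library. Its value in EVX1 KO was -0.68 ± 0.23 (adjusted p = 0.144), which passed the test without EVX1 KO replicate 3 (-0.88, adjusted p = 0.0445) and without both day-6 libraries (-1.16, 0.0393). EVX1 KO exceeded Evx1as KO by 0.66 ± 0.20 (adjusted p = 0.0475). That call was lost without any 1 of the Evx1as KO replicates 1, 2 and 3, EVX1 KO replicates 2 and 3, and WT replicates 1 and 2, with adjusted p of 0.124, 0.0601, 0.133, 0.135, 0.109, 0.0623 and 0.0625. Without both day-6 libraries the difference was 0.17 (adjusted p = 0.566).

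Phlda2 fell in Evx1as KO by 1.29 (SE 0.31, adjusted p = 0.0181, limma). Leaving out Evx1as KO replicate 3 (adjusted p = 0.0503), WT replicate 1 (0.122) or WT replicate 2 (0.0555) ended the call. In EVX1 KO its log2 fold change was -0.08 ± 0.31 (adjusted p = 0.898). Between the knockouts, EVX1 KO was higher than Evx1as KO by 1.20 ± 0.28 (adjusted p = 0.0169), which did not hold when EVX1 KO replicate 2 (0.066) or Evx1as KO replicate 3 (0.054) was left out. Without both day-6 libraries the difference was 0.46 (adjusted p = 0.142).

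Ascl2, a bHLH factor of the trophoblast lineage, ranged from 1.11 to 3.17 FPKM in Evx1as KO and from 1.88 to 3.47 FPKM in EVX1 KO, against 3.17 to 4.57 FPKM in WT. Its log2 fold change in Evx1as KO was -0.71 ± 0.29 (adjusted p = 0.107, limma) and was called without Evx1as KO replicate 2 (-0.96, adjusted p = 0.0324). The histone chaperone gene Nap1l4 and the gene Tssc4 had values of -0.15 ± 0.09 and -0.23 ± 0.09 in Evx1as KO, neither called. The paternal non-coding RNA Kcnq1ot1, which silences the cluster in cis, stayed between 0.171 and 0.263 FPKM in all libraries, and the transporter gene Slc22a18 between 0.469 and 1.27 FPKM. In a fit with no filter Kcnq1ot1 had log2 fold changes of 0.01 ± 0.05 in Evx1as KO and 0.05 ± 0.05 in EVX1 KO, neither called (adjusted p = 0.917 and 0.645, limma).

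Grb10, on chromosome 11, encodes an adaptor that restrains the insulin and IGF1 receptors and is maternally expressed outside neurons. It had 96.3, 79.8 and 83 FPKM in Evx1as KO and 68.7, 66.1 and 66.9 FPKM in EVX1 KO, against 49.4 and 49.2 FPKM in WT. The groups did not overlap, and the spread within EVX1 KO and WT was under 3 FPKM. Grb10 rose in Evx1as KO by 0.79 ± 0.09 (adjusted p = 0.00149, limma), a call kept in each of 8 fits that left out 1 library. In EVX1 KO it stood at 0.44 ± 0.09 (adjusted p = 0.0618), and at 0.47 without both day-6 libraries (0.109). EVX1 KO was lower than Evx1as KO by a log2 fold change of -0.35 ± 0.08 (adjusted p = 0.0192), which did not hold when EVX1 KO replicate 2 (0.0748) or Evx1as KO replicate 1 (0.0563) or 3 (0.0505) was left out, or both day-6 libraries (-0.32, 0.179).

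Mest, on chromosome 6, encodes a hydrolase-like protein of mesodermal tissue and is paternally expressed. It had 28.1, 48.5 and 41.7 FPKM in Evx1as KO and 85.9, 81.4 and 53.8 FPKM in EVX1 KO, against 70.6 and 57.7 FPKM in WT. Evx1as KO lay below both other groups. The value against WT, -0.72 ± 0.25, did not pass the test (adjusted p = 0.0663, limma), but did without EVX1 KO replicate 3 (-0.72, 0.035) or Evx1as KO replicate 2 (-0.88, 0.0405). The level in EVX1 KO was above that in Evx1as KO by 0.89 ± 0.22 (adjusted p = 0.023). Leaving out EVX1 KO replicate 1 (0.0613) or 2 (0.0841), or Evx1as KO replicate 1 (0.0619) or 3 (0.0575), ended the call, and it was 1.14 without both day-6 libraries (0.0487).

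At the Peg13-Trappc9 locus on chromosome 15, the non-coding RNA Peg13 lies within the trafficking gene Trappc9. Trappc9 had 12, 8.59 and 12.1 FPKM in Evx1as KO and 9.09, 6.51 and 5.62 FPKM in EVX1 KO, against 6.95 and 5.94 FPKM in WT. It rose in Evx1as KO by 0.67 ± 0.20 (adjusted p = 0.0412, limma). Leaving out Evx1as KO replicates 1 and 3, EVX1 KO replicate 2 and WT replicates 1 and 2 in turn gave adjusted p of 0.11, 0.12, 0.0608, 0.102 and 0.198. The difference between EVX1 KO and Evx1as KO, -0.57 ± 0.18 (adjusted p = 0.0515), was called without EVX1 KO replicate 1 (0.0194) or Evx1as KO replicate 2 (0.0274). Peg13 stayed between 0.496 and 1.58 FPKM in all groups.

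Impact, a paternally expressed regulator of translation, had 27.1, 37.4 and 28.6 FPKM in Evx1as KO and 31.4, 37.1 and 35.6 FPKM in EVX1 KO, against 43.3 and 41.7 FPKM in WT. All knockout libraries lay below WT. Impact fell in Evx1as KO by 0.45 (SE 0.14, adjusted p = 0.0428, limma). Leaving out Evx1as KO replicates 1 and 3, EVX1 KO replicates 2 and 3 and WT replicates 1 and 2 in turn gave adjusted p of 0.116, 0.123, 0.0609, 0.05, 0.168 and 0.132, and 0.057 without both day-6 libraries.

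The remaining paternally expressed members were not called in any comparison. The zinc finger factor gene Plagl1 ranged from 4.11 to 8.61 FPKM over all libraries, and Zdbf2 from 11.1 to 23.4 FPKM. Neuronatin (Nnat) had 37.7, 53.8 and 56.9 FPKM in Evx1as KO and 88.5, 70.3 and 52.4 FPKM in EVX1 KO, against 61.9 and 91.4 FPKM in WT. The inositol phosphatase gene Inpp5f had 4.81, 4.6 and 4.83 FPKM in Evx1as KO and 5.33, 5.54 and 5.74 FPKM in EVX1 KO, against 3.19 and 4.2 FPKM in WT. All knockout libraries of Inpp5f lay above WT, at 0.30 ± 0.12 in Evx1as KO and 0.49 ± 0.12 in EVX1 KO (adjusted p = 0.108 and 0.0844, limma). Mcts2, a retrogene whose reads may be shared with its parent gene, ranged from 6.11 to 14.3 FPKM and was called in Evx1as KO without Evx1as KO replicate 2 (-0.68, adjusted p = 0.0253). Rasgrf1, a Ras exchange factor, was listed at 0 in every library but Evx1as KO replicate 3, at 0.0328 FPKM.

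Gnas, which encodes the stimulatory G protein alpha subunit from both alleles in most cells and several imprinted transcripts besides, was the most abundant member. It ranged from 507 to 580 FPKM in Evx1as KO and from 479 to 530 FPKM in EVX1 KO, against 503 to 548 FPKM in WT. Its log2 fold changes were 0.06 ± 0.09 and -0.07 ± 0.09, and the single Gnas row cannot separate its transcripts.

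Within EVX1 KO, the pair with day 6 in the protocol text lay on the same side of replicate 1 for 28 of the 32 members (87.5%), above it for 13 and below for 15. Over all 13188 genes tested this share was 75.2%. Phlda2 was 1.13 and Cdkn1c 0.74 higher on the log2 scale in the mean of the pair, against -0.56 for Plagl1 and -0.52 for Nnat. Day of harvest and replicate cannot be told apart here.

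Other genes known to be imprinted in mouse were taken as a separate list of 46, of which 45 were in the table and 26 tested. In Evx1as KO against WT 7 rose and 9 fell, in EVX1 KO against WT none was called by limma (9 had an unadjusted p under 0.05), and in EVX1 KO against Evx1as KO 5 were higher and 4 lower. These are 61.5%, 0% and 34.6% of the list, beside 24.5%, 1.24% and 22.0% of all genes tested, of which 2800 had an unadjusted p under 0.05 in EVX1 KO against WT. With the day-6 pair left out, limma called 0 in EVX1 KO against WT (6 at an unadjusted p under 0.05), and against Evx1as KO 2, both lower. Medians were -0.24, 0.00 and 0.07, beside 0.02, 0.02 and 0.00 over all genes. Calcr, the calcitonin receptor gene near Peg10, had 4.35, 3.1 and 3.87 FPKM in Evx1as KO and 1.28, 0.955 and 0.603 FPKM in EVX1 KO, against 0.591 and 0.532 FPKM in WT, and rose in Evx1as KO by 1.60 ± 0.19 (adjusted p = 0.00149, limma). Calcr reached 1 FPKM only in Evx1as KO and EVX1 KO replicate 1, so it passed the filter through the group where it is high. Begain, also among the 7 that rose, did so only in Evx1as KO and EVX1 KO replicate 2. The filter thus favoured the rise of both. Peg12 and Qpct, among the 9 that fell, were below 1 FPKM in every Evx1as KO library, so their falls were favoured too. Dhcr7, an enzyme of cholesterol synthesis, rose by 1.11 ± 0.17 (adjusted p = 0.0034). Sfmbt2, a polycomb protein needed in trophoblast, fell by 0.96 (SE 0.23, adjusted p = 0.0174), a call lost without Evx1as KO replicate 1 or 3 or either WT replicate, with adjusted p reaching 0.11.

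The insulin-like growth factor list around Igf2, Igf2r and Grb10 held 16 genes, of which 14 were tested. In Evx1as KO 4 rose and 2 fell, in EVX1 KO against WT none was called by limma (6 had an unadjusted p under 0.05), and in EVX1 KO against Evx1as KO 2 were higher and 4 lower. The called shares were 42.9%, 0% and 42.9%, beside the same 24.5%, 1.24% and 22.0% of all genes. Of all 13188 genes tested, 2800 had an unadjusted p under 0.05 by limma in EVX1 KO against WT. The fit without that pair had 1 higher in EVX1 KO than in WT, Igfbp3, and 2 called against Evx1as KO, Igfbp3 and Igfbp4, both higher. Igfbp4, a secreted protein that binds IGF, had 5.1, 9.93 and 6.27 FPKM in Evx1as KO and 61.6, 64.5 and 59.4 FPKM in EVX1 KO, against 36.2 and 35.9 FPKM in WT. It fell in Evx1as KO by 2.24 (SE 0.20, adjusted p = 0.000641) and was 0.76 ± 0.20 above WT in EVX1 KO, which did not pass the test (adjusted p = 0.0926), nor without both day-6 libraries (0.76, 0.197). Insr, the insulin receptor gene, rose in Evx1as KO by 0.83 ± 0.13 (adjusted p = 0.00386), and the insulin receptor substrate gene Irs4 by 0.94 ± 0.18 (adjusted p = 0.00742), at 1.04, 1.03 and 1.29 FPKM in Evx1as KO against 0.0855 and 0.126 FPKM in WT. Irs4 passed the filter through Evx1as KO, so it had to stand high there. Insr was also among the 4 lower in EVX1 KO than in Evx1as KO. It lies on chromosome 8, whose log2 median was -0.38 and -0.30 in EVX1 KO replicates 1 and 2. In Evx1as KO that median was 0.15 to 0.16, and its part in the Insr difference was not tested. Igf1r, the receptor through which Igf2 signals, lay between 22.5 and 26.2 FPKM in all libraries.

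Genes that keep or erase imprints were listed as 22, of which 20 were tested. In Evx1as KO 4 rose and 1 fell, in EVX1 KO against WT 1 rose, and in EVX1 KO against Evx1as KO 2 were higher and 2 lower. At 25%, 5% and 20% of the list, these shares stand beside 24.5%, 1.24% and 22.0% of all genes, so the first and last are near the background. Leaving out the day-6 pair gave 0 called by limma in EVX1 KO against WT (6 at an unadjusted p under 0.05), and 1, Dnmt3b, lower than in Evx1as KO. The de novo methyltransferase gene Dnmt3b had 176, 193 and 203 FPKM in Evx1as KO and 94.3, 92 and 67.4 FPKM in EVX1 KO, against 48.2 and 60.8 FPKM in WT, and rose in Evx1as KO by 1.80 ± 0.16 (adjusted p = 0.000591, limma). Dnmt3a rose by 0.67 ± 0.14 (adjusted p = 0.00922), a call lost without WT replicate 2 (0.0684). The demethylation enzyme gene Tet1 rose by 0.59 ± 0.13 (adjusted p = 0.0142), a call lost without WT replicate 1 (0.0992). Dnmt3l, the cofactor of these methyltransferases, fell by 1.24 (SE 0.40, adjusted p = 0.0491), a call lost in every fit that left out 1 library other than Evx1as KO replicate 2, with adjusted p reaching 0.262. Smchd1, a chromosomal protein that acts at some imprinted clusters, had 8.7, 9.71 and 8.9 FPKM in Evx1as KO and 14, 14.5 and 14.4 FPKM in EVX1 KO, against 6.57 and 8.77 FPKM in WT. It rose in EVX1 KO by 0.84 ± 0.12 (adjusted p = 0.0266), a call lost without Evx1as KO replicate 3, EVX1 KO replicate 1 or 2, or WT replicate 1, with adjusted p reaching 0.163, and without both day-6 libraries (0.81, 0.0682). It was also lost with no filter on low values (0.0579) and with only the 2 groups compared (0.0697). Zfp445, the remaining gene of the 4 that rose in Evx1as KO, had 5.07, 4.77 and 4.33 FPKM there. It had 4.47, 4.1 and 4.33 FPKM in EVX1 KO, against 3 and 3.42 FPKM in WT. Zfp57 and Trim28, which hold the imprints, were not called in any comparison. Methylation was not measured.

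**Figure D5:**
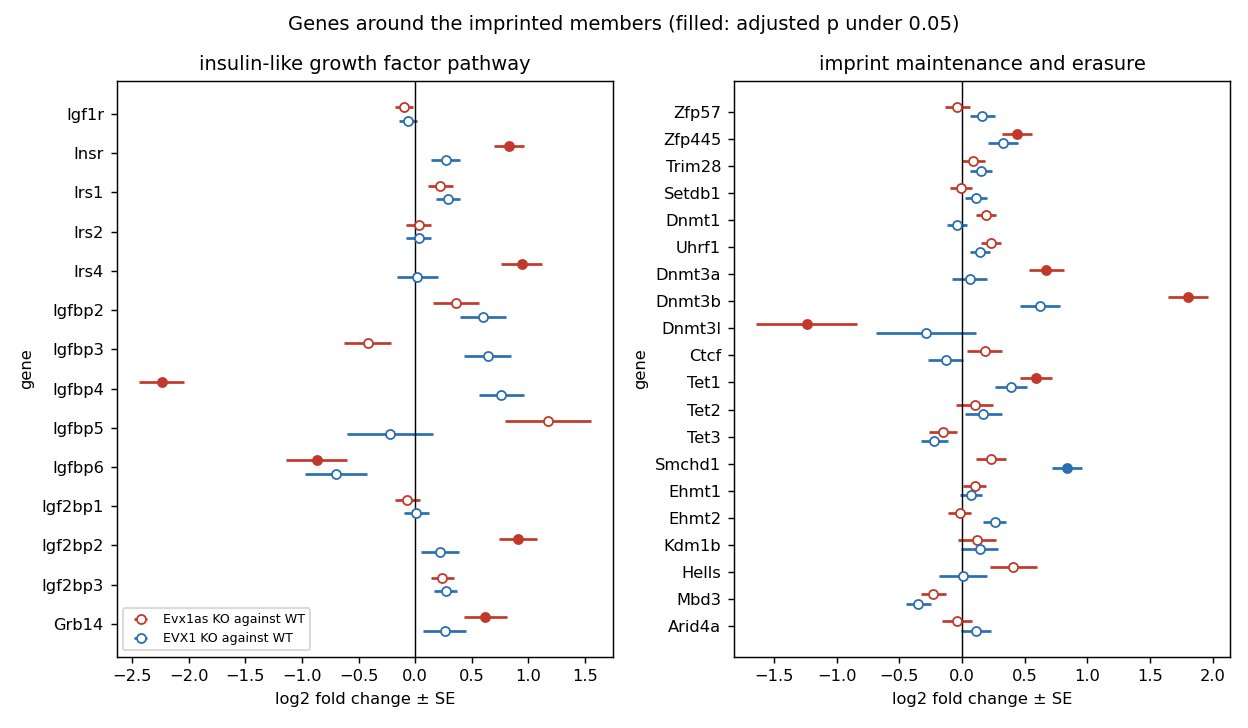
Log2 fold change with its standard error of the tested genes of the insulin-like growth factor list and of the imprint maintenance and erasure list, with filled points for adjusted p under 0.05. Igfbp4 is the lowest point for Evx1as KO and Dnmt3b the highest, and Smchd1 is the only filled point for EVX1 KO.

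Markers of other cell types were read in the same way, and their part in the results was not tested. Their counts in Evx1as KO against WT stand beside 24.5% called and 11.4% lower over all genes tested. Of 10 trophoblast markers 6 were tested, and 5 fell in Evx1as KO, including Hand1, which the mesoderm list also holds. Summed levels of the list were 880 to 1449 FPKM in Evx1as KO and 1721 to 2185 FPKM in EVX1 KO, against 2589 to 3105 FPKM in WT, nearly all from Krt8 and Krt18, which other epithelia share. Tpbpa and Prl3d1, markers of later trophoblast cells (spongiotrophoblast and giant cells), were listed at 0 in all 8 libraries, and Elf5 did not exceed 0.0674 FPKM. Of 10 endoderm markers 5 were tested, and 2, Gata4 and Gata6, fell in Evx1as KO. Their summed levels were 7.97 to 14.2 FPKM in Evx1as KO and 42.8 to 72.5 FPKM in EVX1 KO, against 23.6 to 34.2 FPKM in WT, with Afp at most 0.0688 and Ttr at most 0.256 FPKM. Gata4 lies on chromosome 14, whose median was low in Evx1as KO replicates 2 and 3. Gata4 and Gata6 were below 1 FPKM in every Evx1as KO library, so the filter favoured both falls. Of 10 fibroblast or feeder markers 7 were tested and 2 fell in Evx1as KO, with sums of 14.9 to 24.7 FPKM in Evx1as KO and 27.2 to 34.7 FPKM in EVX1 KO, against 23.4 to 38.1 FPKM in WT. Postn, Lum and Col6a3 stayed below 1 FPKM. Col3a1 and Fbln2, the 2 that fell, were below 1 FPKM in every Evx1as KO library, so the filter favoured their falls. Of 8 neural markers 4 were tested and 1, Sox1, rose in Evx1as KO, with sums of 71.6 to 96.3 FPKM in Evx1as KO and 31.5 to 79.6 FPKM in EVX1 KO, against 74.7 to 93.6 FPKM in WT, mostly from Nes. Sox1 passed the filter only through Evx1as KO, so it had to stand high there and its call supports nothing. Pax6, Neurog2 and Dcx were below 1 FPKM in all libraries.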

How the data were processed

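The deposited table gives FPKM per gene row for 8 polyadenylated, strand-marked RNA libraries. The submitters' processing notes name CASAVA, TopHat2 version 2.0.11 and the builds mm10 and mm9 without a role. No source used here gives the program, annotation or strand setting with which the authors made the FPKM values, and read counts were not used. Only 2641 of 22503 matched symbols overlapped their GRCm38 positions, so coordinates of rows are those of the deposited table, of a build other than GRCm38. Rows sharing a symbol had equal FPKM and were merged.

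Tests used limma 3.58.1 in R 4.3.3 on log2(FPKM + 1), with group means over 8 libraries, an intensity trend and Benjamini-Hochberg adjustment, after a filter of at least 1 FPKM in at least 2 libraries. The procedure was tested on simulated data. Pseudocounts of 0.1 and 5, other filters, scalings, variance models and left-out libraries were tried. The FPKM values do not state their counting error, so precision was judged only from the spread between libraries. Members, gene lists and alternatives were chosen with earlier results of these data known. Every member found is described. Genes named from the other lists were mostly called genes with large fold changes. Igf1r, Zfp57 and Trim28 were named although not called. Begain, Peg12, Qpct and some markers were named for how they passed the filter. Further rows are said to be chosen after their values were seen.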

Additional observations from a re-analysis of the deposited data

How the results depend on the processing

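No result named here changed sign while called. In Evx1as KO against WT, Peg10, Magel2, Grb10 and Cdkn1c, of the 14 called members, were called in all 8 fits that left out 1 library. In EVX1 KO against Evx1as KO Peg3, Peg10 and Magel2 were. Not counted are AK145379, tested because it stood high in WT, and Asb4, which passed the filter through EVX1 KO only. Dlk1 is not counted either, because it passed the filter only through EVX1 KO and WT. It was called in all 8 fits in EVX1 KO against Evx1as KO. AK145379 was called in all 8 fits in Evx1as KO against WT, but not in all 8 in EVX1 KO against WT. Leaving out 1 library gave 1414 to 3427 genes called in Evx1as KO against WT, with 3 to 6 members higher and 3 to 12 lower. It gave 4 to 643 genes in EVX1 KO against WT, with 0 to 4 members higher and 0 to 2 lower. It gave 1401 to 2671 genes in EVX1 KO against Evx1as KO, with 4 to 8 members higher and 1 to 4 lower.

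With no filter on low values, more genes are tested, and 3 members were called higher and 4 lower in Evx1as KO against WT. In EVX1 KO against WT 28 genes were then called, beside 164 with the filter, and 0 members were lower by limma (AK145379 at adjusted p = 0.0586, 11 members at an unadjusted p under 0.05 with the filter), and in EVX1 KO against Evx1as KO 5 members were higher. Without the intensity trend 3 members were higher in Evx1as KO against WT, and 78 genes were called in EVX1 KO against WT. With only the 2 groups compared that count was 35. With array weights it was 1148, with 7 members higher, and EVX1 KO against Evx1as KO gave 5552 genes, beside 2903, with 4 members lower. A pseudocount of 5 also gave 4 lower there. Without both libraries of day 6 in the protocol text, EVX1 KO against Evx1as KO gave 1102 genes, 4 members higher and 1 lower. The causes were not tested.

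With a pseudocount of 0.1 and 5, Dlk1 minus Meg3 shifted by -2.10 and -0.81 in Evx1as KO against WT, beside -1.40. Peg3 minus Zim1 in EVX1 KO against WT was 0.23 with 5, beside -0.16. Sgce minus Asb4 in Evx1as KO against WT was 1.17 with 0.1, beside 0.35, and in EVX1 KO against WT -1.46 and -0.45, beside -0.95.

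Deviations of libraries with equal replicate numbers correlated between -0.0985 and 0.0759, beside -0.159 to 0.161 for unequal numbers. The check thus showed no pairing by number. It cannot exclude a shared batch, because deviations within groups of 2 or 3 libraries depend on each other. With the replicate number as a block, 6 members were higher and 8 lower in Evx1as KO against WT (Rian gained, Impact lost), 28 genes and 1 member were called in EVX1 KO against WT (Smchd1 lost, adjusted p = 0.0596), and 8 members were higher and 3 lower in EVX1 KO against Evx1as KO (Trappc9 gained, Cdkn1c lost).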
